A study of Homo sapiens with 4 samples.

Results

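The genes described here are 10 that encode brakes on MAP kinase and RAS signalling: the dual-specificity phosphatases DUSP1, DUSP2, DUSP4, DUSP5, DUSP6 and DUSP10, the Sprouty genes SPRY1 and SPRY2, and SPRED1 and SPRED2. Members were taken by name, as every probe set that the array annotation gives a single one of these symbols. That gave 10 of 19775 genes and 22 of 54675 probe sets, and no probe set with several symbols held a member. MyLa, from mycosis fungoides, and HH, from cutaneous T cell lymphoma, are human lines, and 4 arrays measured their RNA, 1 per line and condition. All cells were kept for 40 hours in 0.1% serum, which starves them of growth factors, and IL-32γ, a form of the cytokine interleukin-32, was either left out (the control) or added at 5 ng/ml. Each disease name is thus carried by a single cell line, and no condition has a replicate array.

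Growth factor, cytokine and T cell receptor signals pass through RAS to the kinases RAF, MEK and ERK, and stress signals pass to the kinases JNK and p38. These kinases switch on genes whose products then switch the pathway off. DUSP proteins remove the activating phosphates from MAP kinases, Sprouty proteins act between receptors and RAF, and SPRED proteins bring neurofibromin, which inactivates RAS, to the membrane. Levels of such feedback genes are often read as a trace of pathway activity, although protein and phosphorylation were not measured here.

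Each value is an expression level on the log2 scale, so a difference of 1 is 2-fold. A value of 5 or more was taken as measured. Of the 22 probe sets, 15 were measured on at least 1 array, 14 on at least 2 arrays and 7 on all 4. The measured ones covered 9 of the 10 genes. The single probe set of SPRY2, which encodes an inhibitor of receptor tyrosine kinase signalling, read 2.13 on all 4 arrays, the lowest value of the data. The other 6 unmeasured probe sets stayed below 5 on every array, among them 2 of the 3 for DUSP1, 1 of 2 for SPRY1, 1 of 3 for SPRED1 (235074_at, which reached 4.98 on the MyLa control array) and 2 of 3 for SPRED2.

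The lines were checked against T cell genes, each gene by its brightest probe set. HH had 9 of 12 T cell markers at 5 or more and MyLa 6 of 12. CD3D lay between 11.87 and 12.50 on the 4 arrays, whereas CD3E, CD4 and CD5 were below 5 in MyLa, and CD7, CD28 and LCK were below 5 in both lines. Markers of other cell types moved with the line. Of 7 fibroblast markers, COL1A1 and COL3A1 were measured in MyLa, and COL1A1 also in HH with IL-32γ (4.78 without and 5.66 with it, a difference of at least 0.66). The log2 of the list's summed level was 13.43 to 13.52 in MyLa and 5.80 to 6.30 in HH. Of 6 keratinocyte markers, KRT10 was measured in both lines and CDH1 in MyLa alone (summed level 13.41 to 13.46 in MyLa, 11.45 to 11.53 in HH). The defining markers DCN, LUM, KRT5 and KRT14 were below 5 on all 4 arrays. Of 6 myeloid markers only ITGAM, in MyLa, was measured (summed level 8.80 to 9.06 in MyLa, 4.72 in HH), and none of 4 B cell markers was. The part of these genes in the line differences below was not tested.

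The feedback genes split between the lines. DUSP5, DUSP6, SPRY1 and SPRED1 were higher in MyLa, and DUSP1, DUSP2, DUSP4 and SPRED2 were higher in HH. DUSP10 was higher in MyLa by 1 of its 2 probe sets, while the brighter one lay within 2-fold. The 2 arrays of each line served as replicates in limma, and 12 of 14 tested probe sets passed an adjusted p of 0.05 and 2-fold, against 35.1% of the 25273 tested. Of these, 6 were higher in HH (16.9% of all) and 6 higher in MyLa (18.2% of all). DUSP4 and DUSP6 each gave 3 of the tested probe sets. The tested probe sets of DUSP5, SPRY1 and SPRED1, and 208892_s_at and 208893_s_at of DUSP6, reached 5 in MyLa alone. That of DUSP1 reached 5 in HH alone. These entered the test only through the line where they were high, so their line difference is not independent of the filter. In the other line both values were set to the floor, which takes away that line's spread. Their SE and p given below thus depend on the floor as well. The median absolute difference was 2.61 for the 14 and 0.72 for all tested. The arrays of the lines did not overlap for any of the 14, but this held for 80.3% of all probe sets. Any response to IL-32γ is part of the spread in this test, nothing in the labels makes the 2 arrays separate cultures of 1 condition, and line and culture cannot be told apart. The 5' control probe set of ACTB, which reads RNA far from the primed end, also moved with the line, at 10.12 and 11.81 in MyLa and 12.69 and 13.58 in HH, while the 3' one read 15.14 and 15.07 in MyLa and 15.27 and 15.24 in HH. Its part in the line differences was not tested. Nor can fewer expressing cells and less RNA per cell be told apart in bulk RNA.

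**Figure D1:**
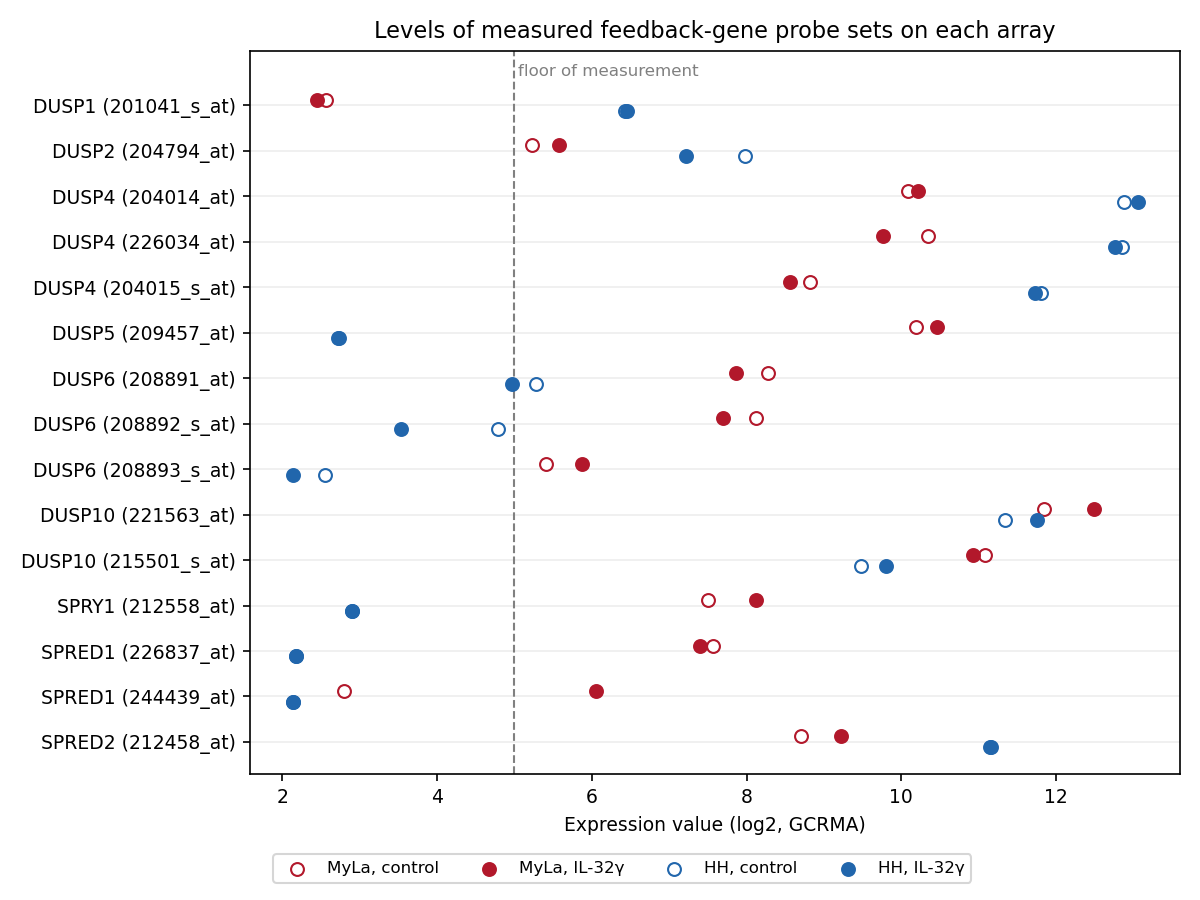
Expression value (log2, horizontal axis) of each of the 15 measured probe sets on the 4 arrays: red for MyLa, blue for HH, open for control, filled for IL-32γ. The dashed line marks the floor of 5. For DUSP5, SPRY1 and SPRED1 the HH points lie at 2.90 or lower while MyLa was measured, for DUSP4 the HH points lie to the right of the MyLa points, and within a line the 2 points mostly lie close together.

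Among the phosphatases of ERK, DUSP5, a nuclear enzyme specific for ERK, differed most. Its probe set read 10.19 and 10.46 on the MyLa control and IL-32γ arrays and 2.72 and 2.73 on those of HH. DUSP5 was thus well measured in MyLa and below the floor on both HH arrays. Set against a floor of 5, it was at least 40.1-fold higher in MyLa (HH minus MyLa -5.32, SE 0.14, limma adjusted p = 0.000244). A difference as large was seen in 2.66% of all probe sets tested. Both HH values were set to 5, so HH added no spread to this SE and p. Without floor and filter the limma adjusted p of DUSP5 was 0.00519.

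DUSP6 is the cytoplasmic phosphatase of ERK and, like DUSP5, a target gene of it. The first of its 3 probe sets (208891_at) read 8.28 and 7.87 in MyLa and 5.28 and 4.97 in HH, a difference of -2.93 (SE 0.21, limma adjusted p = 0.00201), with 1 of the HH arrays below 5. The second (208892_s_at) read 8.12 and 7.70 in MyLa and 4.79 and 3.53 in HH, at least 7.51-fold higher in MyLa (adjusted p = 0.00153). Both lie well apart in the 2 lines. The third (208893_s_at) was dim, at 5.40 and 5.88 in MyLa against 2.55 and 2.13 in HH, and its difference of -0.64 did not pass (adjusted p = 0.069). All 3 had the same sign. The calls of the first and second were lost when either HH array was left out (adjusted p up to 0.0703 and 0.0688).

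DUSP4, a nuclear phosphatase of ERK and JNK that is itself induced by ERK, went the other way. Probe set 204014_at read 10.08 and 10.21 in MyLa and 12.88 and 13.05 in HH, 7.06-fold higher in HH (difference 2.82, SE 0.13, limma adjusted p = 0.000721). Its other probe sets gave much the same size. The values of 226034_at were 10.34 and 9.77 in MyLa and 12.85 and 12.76 in HH (difference 2.75, adjusted p = 0.00306). Those of 204015_s_at were 8.82 and 8.56 in MyLa and 11.81 and 11.72 in HH (difference 3.07, adjusted p = 0.000721). All 3 were measured on every array, so none of these differences rests on the floor, and 204014_at and 204015_s_at were also called with any 1 array left out. The call of 226034_at was lost without either HH array (adjusted p up to 0.0912). DUSP4 and DUSP5, both nuclear, thus differed in opposite directions, DUSP4 being measured in both lines and DUSP5 in MyLa.

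DUSP2, a nuclear phosphatase best known from activated lymphocytes, read 5.22 and 5.58 in MyLa, close to the floor, and 7.97 and 7.21 in HH. It was 4.56-fold higher in HH (difference 2.19, SE 0.33, limma adjusted p = 0.0113), but the call was lost with any 1 array left out (adjusted p from 0.0672 to 0.131). DUSP1, an immediate early phosphatase of p38, JNK and ERK, had 1 measured probe set. It read 2.56 and 2.45 in MyLa and 6.42 and 6.45 in HH, so it was at least 2.71-fold higher in HH (adjusted p = 0.00203). With a floor of 6 this bound shrank to 0.44 on the log2 scale, under 2-fold, and the other DUSP1 probe sets (201044_x_at at 3.08 to 3.25, 226578_s_at at 2.13) were below 5 in both lines.

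DUSP10, which acts on JNK and p38, was measured on every array by both of its probe sets. The values of 221563_at were 11.84 and 12.49 in MyLa and 11.34 and 11.75 in HH. They lay close, and the difference of -0.62 (SE 0.30) did not pass (limma adjusted p = 0.163). Those of 215501_s_at were 11.08 and 10.92 in MyLa and 9.47 and 9.80 in HH, 2.57-fold higher in MyLa (difference -1.36, SE 0.17, adjusted p = 0.0073). That call was lost with any 1 array left out (adjusted p from 0.0599 to 0.0866).

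The adaptor genes also divided. SPRY1, a Sprouty gene, read 7.50 and 8.12 in MyLa and 2.90 on both HH arrays, at least 7.01-fold higher in MyLa (limma adjusted p = 0.00332), a call lost without either HH array (adjusted p up to 0.0963). SPRED1 (226837_at) read 7.56 and 7.40 in MyLa and 2.17 on both HH arrays, at least 5.58-fold higher in MyLa (adjusted p = 0.000798). Its close relative SPRED2 (212458_at) showed the reverse, with 8.70 and 9.22 in MyLa and 11.15 on both HH arrays, 4.57-fold higher in HH (difference 2.19, SE 0.22, adjusted p = 0.00421). SPRED2 was measured on all arrays, and its call was lost without either HH array (adjusted p up to 0.102). SPRED2 was thus measured in both lines and SPRED1 in MyLa.

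**Figure D2:**
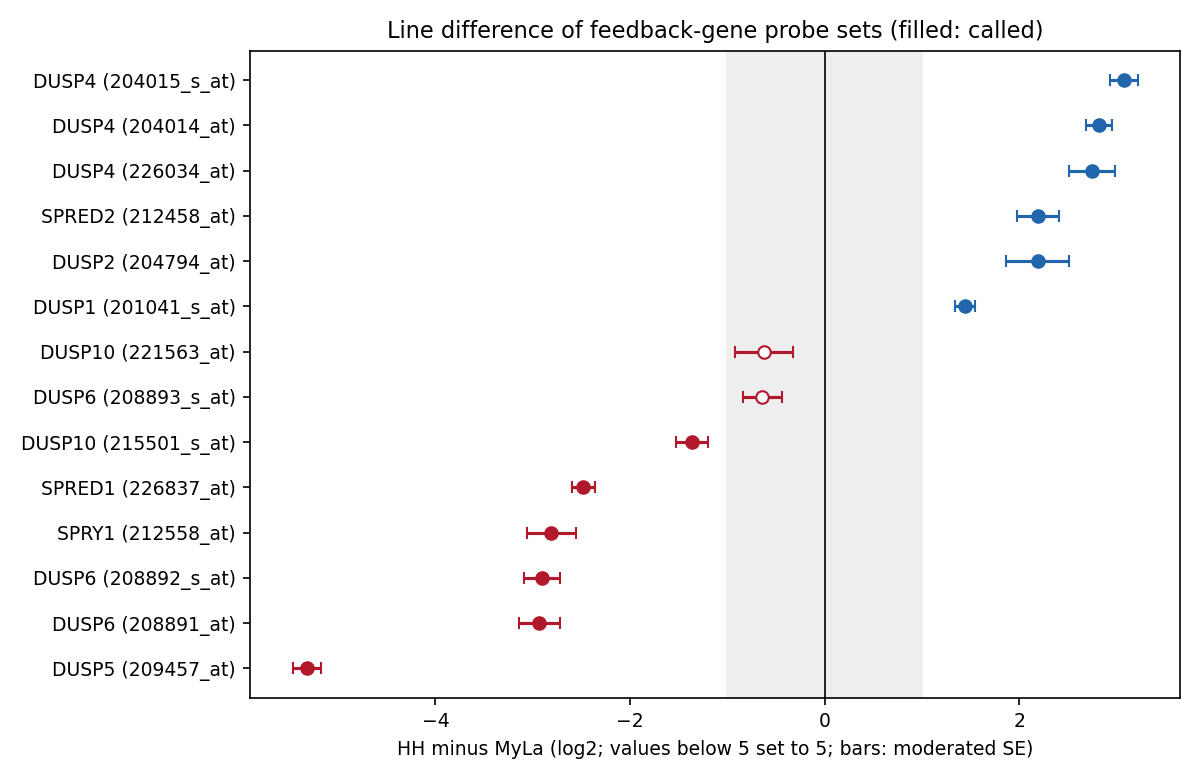
HH minus MyLa (log2, horizontal axis) of the 14 tested probe sets, with moderated standard errors as bars; filled points passed an adjusted p of 0.05 and 2-fold, and the grey band is within 2-fold. The points run from DUSP5 at -5.32 to DUSP4 (204015_s_at) at 3.07, and 221563_at of DUSP10 and 208893_s_at of DUSP6 are the 2 that did not pass.

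With any 1 array left out, 5 to 10 of the 14 probe sets were called, 10 without either MyLa array and 5 without either HH array. The share of all probe sets called also fell, from 35.1% to between 14.3% and 26.0%. All 14 kept their sign in these fits, which was fixed in advance, since the arrays of the lines did not overlap for any of them. Where both arrays of a line lie below the floor they are set to the same value, which takes away that line's spread. Without floor and filter 9 of the 22 probe sets were called (10.6% of all), and DUSP2, 208892_s_at of DUSP6, SPRED2 and 215501_s_at of DUSP10 no longer passed (adjusted p 0.102, 0.0907, 0.0522 and 0.0618). The tested probe sets of DUSP1, DUSP5, SPRY1 and SPRED1 still passed in that limma fit (adjusted p 0.00431, 0.00519, 0.0233 and 0.00442).

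The sequence before the start of 8 of the 10 genes was available from RefSeq (GRCh38.p14), as 13 windows. DUSP4 and DUSP5 had no window, so their opposite line differences are not covered here. DUSP1, DUSP2, DUSP6 and SPRED1 each have 1 listed start, the first 2 being higher in HH and the others in MyLa. Their 250 bases before the start are shown, 5′ to 3′ on the gene's strand, so that the genes of the 2 lines can be set side by side. Capitals mark matches on either strand to the motifs searched. These were the cAMP response element TGACGTCA and its short form TGACG, the AP-1 site TGANTCA and the ETS site CCGGAA. The others were the E-box CACGTG, the GC box GGGCGG, the TATA box TATAAA and the CArG box of serum response factor. Shorter forms of the ETS site were not searched. Neighbouring matches can overlap.
DUSP1, chr5:172771196-172771445, minus strand: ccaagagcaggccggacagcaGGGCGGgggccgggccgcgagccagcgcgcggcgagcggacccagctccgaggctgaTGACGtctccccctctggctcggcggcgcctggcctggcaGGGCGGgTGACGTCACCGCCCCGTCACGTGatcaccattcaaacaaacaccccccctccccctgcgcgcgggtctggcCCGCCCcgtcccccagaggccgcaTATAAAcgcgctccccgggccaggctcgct
DUSP2, chr2:96145441-96145690, minus strand: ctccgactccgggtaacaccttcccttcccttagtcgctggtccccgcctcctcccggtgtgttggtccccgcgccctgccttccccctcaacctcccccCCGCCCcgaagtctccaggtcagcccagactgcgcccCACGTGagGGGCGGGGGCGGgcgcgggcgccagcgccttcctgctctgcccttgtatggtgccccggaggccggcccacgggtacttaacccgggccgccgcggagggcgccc
DUSP6, chr12:89352502-89352751, minus strand: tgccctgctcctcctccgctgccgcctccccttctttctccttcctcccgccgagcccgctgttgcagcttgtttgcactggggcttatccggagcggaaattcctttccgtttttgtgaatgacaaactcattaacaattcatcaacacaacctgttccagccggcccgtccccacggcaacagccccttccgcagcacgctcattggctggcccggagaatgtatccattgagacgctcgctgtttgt
SPRED1, chr15:38252586-38252835, plus strand: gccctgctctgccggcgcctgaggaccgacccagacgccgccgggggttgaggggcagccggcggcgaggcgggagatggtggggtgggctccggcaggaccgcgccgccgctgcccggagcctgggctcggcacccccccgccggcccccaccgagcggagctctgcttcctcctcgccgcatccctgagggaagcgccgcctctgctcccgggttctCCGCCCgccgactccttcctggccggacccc

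DUSP1 was the 1 member whose window held the full cAMP response element, at 125 to 118 bases before the start, an 8-base sequence found in 1.65% of 35116 windows of this length. Short forms lay at 172 to 168 and 111 to 107, an E-box at 108 to 103 overlapping the latter, and a TATA box at 30 to 25. The E-box, in 6.34% of all windows, was also in that of DUSP2, at 113 to 108. The window of DUSP6 held none of the motifs as spelled above, and that of SPRED1 a single GC box, at 31 to 26. The ETS site CCGGAA, in 14.5% of all windows, was found for SPRY1 and SPRY2. The GC box was in 7 of the 13 windows (42.6% of all) and the TATA box in those of SPRED2 and DUSP1 (10.7% of all). The AP-1 site (6.57% of all) and the CArG box (1.16% of all) were in none of the 13. The short form of the cAMP response element, in 21.2% of all windows, was also in that of SPRY2. These matches describe the letters alone.

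Feedback genes differed by 1.5-fold between the IL-32γ and control arrays about as often as all probe sets: 3 of 14 in MyLa, where 20.1% of all did, and 1 of 9 in HH, where 9.45% did. In MyLa, 3 of 14 measured probe sets were higher by that much, those of DUSP10, SPRY1 and SPRED1, and 0 were lower. The background was 11.0% higher and 9.14% lower of 24199 measured probe sets. In HH, 0 of 9 were higher (background 5.43% of 23821) and 1 was lower, that of DUSP2 (background 4.02%). The median difference of the members was 0.20 in MyLa and 0.0090 in HH, beside -0.045 and -0.025 over all measured probe sets. No difference within a line has a test, since each condition was measured once.

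In MyLa, DUSP10 (221563_at) read 11.84 without and 12.49 with IL-32γ, a difference of 0.65, while its second probe set went from 11.08 to 10.92 (-0.16). SPRY1 read 7.50 without and 8.12 with IL-32γ (0.62), and it has no second measured probe set. SPRED1 probe set 244439_at read 2.80 without and 6.05 with IL-32γ, at least 2.08-fold higher, whereas the brighter 226837_at differed by -0.17 and 235074_at read 4.98 and 4.26, both below the floor. For DUSP10 and SPRED1 the probe sets of a gene thus pointed different ways. The bound for SPRED1 depends on the floor, being 0.054 on the log2 scale with a floor of 6 and 2.05 with a floor of 4.

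Other members stayed within 1.5-fold in MyLa. SPRED2 was higher by 0.52, DUSP2 by 0.36 and DUSP5 by 0.28. DUSP6 was lower by its brighter probe sets (-0.41 and -0.42) and higher by the dim one (0.48). The 3 probe sets of DUSP4 lay at 0.13, -0.57 and -0.25, the middle value being 1.49-fold and just short of the threshold. In HH, DUSP2 read 7.97 without and 7.21 with IL-32γ (-0.76, 1.70-fold), with no second probe set, and 1.77% of measured probe sets were as low or lower. The others in HH ran from -0.28 for DUSP6 (208891_at, 4.97 with IL-32γ) to 0.41 for DUSP10 (221563_at). DUSP4 lay between -0.092 and 0.17, DUSP1 at 0.031 and SPRED2 at 0.0090.

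**Figure D3:**
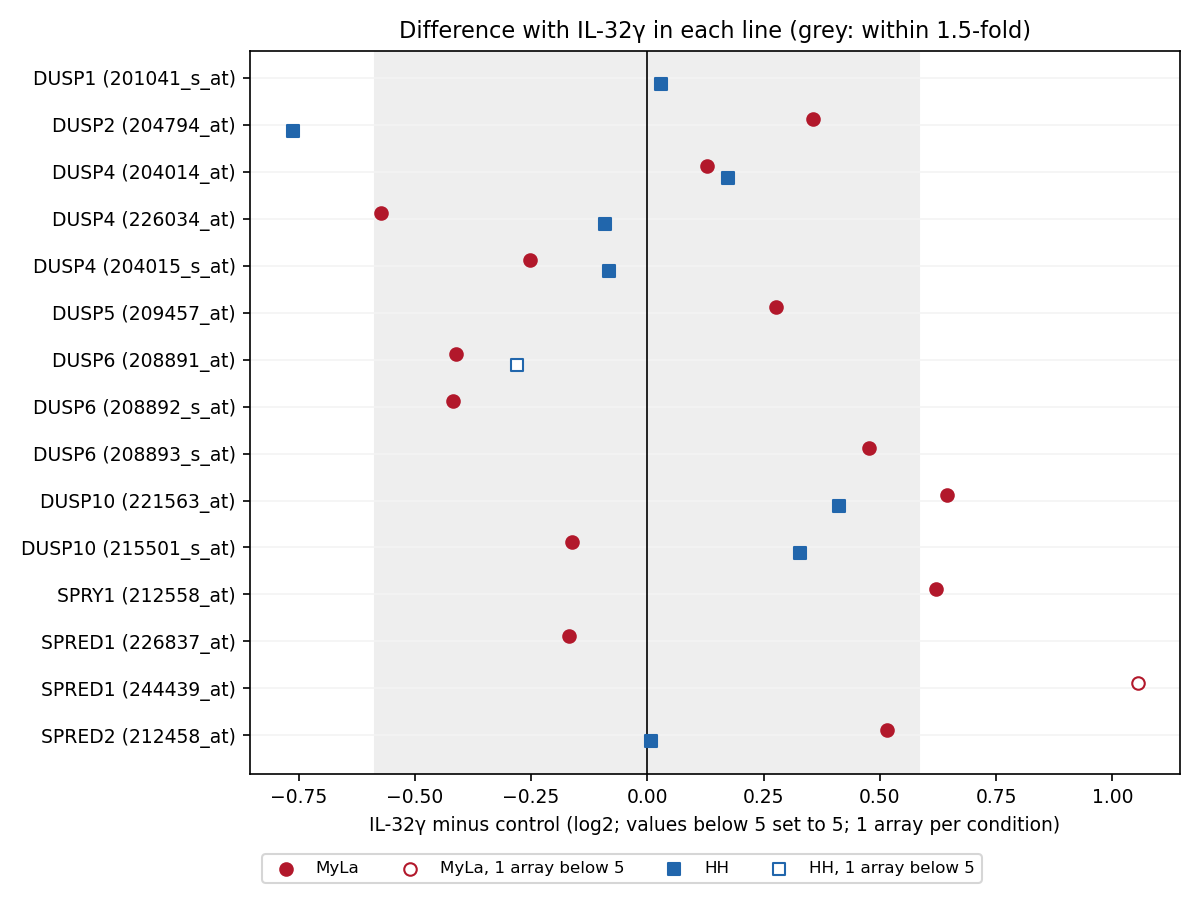
IL-32γ minus control (log2, horizontal axis) for the 15 measured probe sets, red circles for MyLa and blue squares for HH, open where 1 of the 2 arrays was below 5; the grey band is within 1.5-fold and there is 1 array per condition. The 3 MyLa points (DUSP10, SPRY1, SPRED1 244439_at) lie right of the band and 1 HH point (DUSP2, -0.76) left of it.

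Both lines were also fitted in 1 model. With line as the blocking factor in limma, 0 of 14 probe sets passed an adjusted p of 0.05, as did 0.0% of the 25273 tested. At an unadjusted p under 0.05 there was 1 of the 14, against 10.1% of all. This was 221563_at of DUSP10, higher in both lines by a mean of 0.53 (SE 0.14, limma adjusted p = 0.484). Its other probe set had a mean of 0.083 (SE 0.18) and was lower in MyLa. The fit has 1 residual degree of freedom, and a p that misses the threshold does not show that there was no response. DUSP2 differed in sign between the lines, 0.36 in MyLa and -0.76 in HH, but a difference between responses could not be tested.

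The 5' control probe set of ACTB differed between IL-32γ and control by 1.69 in MyLa and 0.89 in HH, and that of GAPDH by 0.68 and 0.15. The 3' ACTB probe set differed by -0.075 and -0.027. The shifts of 5' ACTB are larger than every member difference at the floor of 5 in the same line, and their part in the members' differences was not tested.

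Genes around the feedback genes were taken from lists chosen by function, each gene by its brightest probe set. Genes below 5 on both arrays of a line, such as DUSP23, DUSP19, DOK2, MAPK13 and HBEGF, entered the fit only through the other line. Their line differences and calls are not independent of the filter. Over all genes, 16.6% of 11010 were called higher in HH and 18.6% higher in MyLa. With IL-32γ, 7.77% of measured genes were 1.5-fold higher and 7.65% lower in MyLa, and 1.14% higher and 4.46% lower in HH. Of the feedback genes counted the same way, 4 of 9 were called higher in HH and 4 higher in MyLa. Of 14 other dual-specificity phosphatases in the fit, 1 was called higher in HH and 4 higher in MyLa. DUSP23 was at least 28.5-fold higher in MyLa (9.92 and 9.75, below 5 in HH), DUSP22, a phosphatase of JNK signalling that is rearranged in some T cell lymphomas, differed by -3.02 and DUSP3 by -1.55, while DUSP19 was at least 3.53-fold higher in HH. With any 1 array left out, 1 or 2 genes of this list were called higher in MyLa. With IL-32γ, 0 of 13 measured genes passed 1.5-fold in either line by the brightest probe set. The dimmest probe set of DUSP3, near the floor, read 5.19 without and 6.21 with IL-32γ in MyLa (1.02). The brighter DUSP3 probe sets went the other way there (-0.31 and -0.21).

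The list of other inhibitors of receptor and RAS signalling also held SHOC2, which is not an inhibitor and was not called. Of its 11 genes in the fit, 3 were called higher in HH and 2 higher in MyLa. The adaptor DOK2, which recruits a RAS inhibitor, was at least 47.3-fold higher in HH (10.63 and 10.50, at 2.13 in MyLa), and its relative DOK1 differed by 1.92. SPRED3 went with SPRED1 (-1.84; 6.94 and 7.14 in MyLa, 5.30 and 5.09 in HH), and the ubiquitin ligase CBLB was also higher in MyLa (-1.62). With IL-32γ, the ubiquitin ligase CBL was higher in MyLa (1.14, its other probe sets 0.23 to 0.62). In HH the brightest CBL probe set was higher by 0.25 and a dimmer one by 0.73, which is past 1.5-fold. The remaining CBL probe sets differed by 0.11 and 0.061 there. LZTR1, which promotes loss of RAS proteins, was lower in both lines (-0.63 and -0.72). Without either HH array, 2 genes of this list were called higher in HH and 0 higher in MyLa.

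Of 21 genes of the RAS to ERK cascade, 2 were called higher in HH and 4 higher in MyLa. The docking protein GAB2 differed by -4.58 (9.62 and 9.56 in MyLa, 5.02 and 4.43 in HH, 1 of them below the floor) and the RAS activator SOS2 by -1.76, while the ERK-activated kinase RPS6KA2 (2.73) and the GTPase RRAS (1.73) were higher in HH. With IL-32γ in MyLa, MAP2K2, an ERK kinase, was higher by 1.36 and RRAS by 1.19, and RPS6KA2 and RPS6KA1 were lower (-0.85 and -0.79). The dimmer probe set of RPS6KA2 differed by only -0.12 there. In HH, 0 of the 21 passed 1.5-fold. Without either HH array, 0 genes were called higher in HH and 2 higher in MyLa.

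Of 17 genes of the JNK and p38 cascades, 7 were called higher in MyLa and 0 higher in HH. They included the p38 kinase MAPK13, at least 9.56-fold higher (8.40 and 8.11 in MyLa, below 5 in HH), the stress-activated MAP3K5 (-2.57), the p38 activator MAP2K6 (-1.49), and MAP2K5 (-1.87), which activates MAPK7 rather than JNK or p38. Without either HH array, 1 gene of this list was called. With IL-32γ, MAP3K4 was lower in MyLa (-0.60) and MAPK7 in HH (-0.63). Their dimmer probe sets stayed within 1.5-fold, at -0.48 for MAP3K4 in MyLa and -0.27 for MAPK7 in HH.

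Of 24 ERK-responsive genes, 5 were called higher in HH and 8 higher in MyLa. HBEGF, a ligand of the EGF receptor, was at least 15.0-fold higher in MyLa, and the immediate early genes EGR1 (-3.87; 9.47 and 9.33 in MyLa, 5.59 and 5.48 in HH) and IER5 (-3.67) went the same way. PHLDA1 was higher in HH (2.72), with all 5 of its measured probe sets higher there. Like the DUSP genes, ERK-responsive genes were thus found on both sides. Without either HH array, 0 genes were called higher in HH, and 5 or 6 higher in MyLa. With IL-32γ, by the brightest probe set, CCND3, a cyclin, was lower in MyLa (-0.67), and none of 23 measured genes passed 1.5-fold in HH. Dimmer probe sets of PHLDA1, near the floor without IL-32γ, were higher with it in MyLa by 1.13 and 0.69. The other PHLDA1 probe sets stayed within 1.5-fold there, at 0.31 for the brightest, 0.0095 and -0.54. The list medians with IL-32γ lay between -0.13 and 0.12 in MyLa and between -0.12 and -0.062 in HH, beside -0.068 in both lines over all genes.

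**Figure D4:**
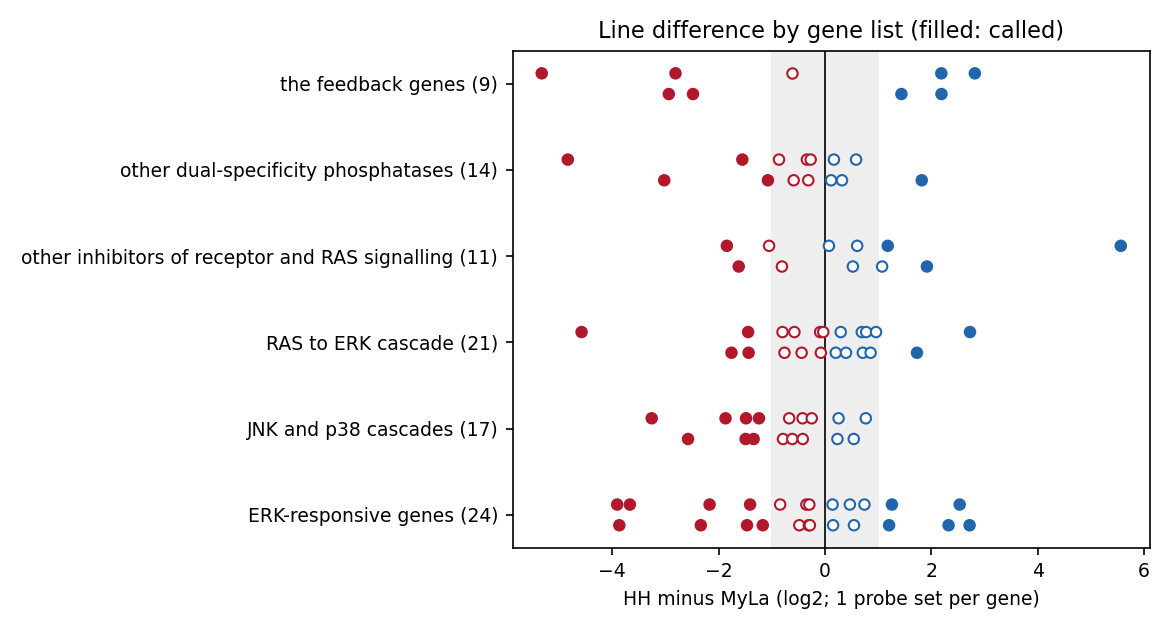
HH minus MyLa (log2, horizontal axis), 1 point per gene by its brightest probe set, for the feedback genes and 5 lists (number of genes in brackets); filled points were called, blue higher in HH and red higher in MyLa, and the grey band is within 2-fold. The feedback genes lie outside the band on both sides except DUSP10, while the 7 filled points of the JNK and p38 list all lie on the MyLa side.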

How the data were processed

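The authors deposited log2 expression values per probe set after GCRMA, per the submitters' processing notes, which corrects background by probe sequence, normalises and summarises probes. The version, and whether all arrays went into 1 normalisation, is not given in the sources used here. The log2 scale was read from the values (2.13 to 16.0). On each array 42.9% to 43.3% of probe sets lay at 5 or more, and the number of arrays limits the precision.

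Symbols came from the array annotation, updated through Entrez identifiers with RefSeq (GRCh38.p14). Of the probe sets, 41097 had 1 symbol, of which 41043 matched, 1801 had several and 11777 none. The 62 control probe sets were left out of fits and counts.

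Values below 5 were set to 5. Differences within a line cover probe sets at 5 or more on at least 1 of its arrays. Fits used limma 3.58.1 in R 4.3.3 on probe sets at 5 or more on at least 2 arrays, two-sided, adjusted by Benjamini-Hochberg over all of them: lines without a block (2 residual degrees of freedom), IL-32γ with the line as a block (1). In simulated data with 200 changed probe sets among 25273, fitted without a floor, both fits recovered 0 of 50 changes of 2-fold. The line fit also required 2-fold, so planted changes of that size could miss by the cut alone. At 4-fold the IL-32γ fit recovered 3 of 50 and the line fit 20 of 50. A count of 0 in the IL-32γ fit thus does not show that nothing changed. Between the real lines a far larger share was called (35.1%), so the simulated recovery does not carry over to the line fit. Where both arrays of a line lay below 5, the fold is a lower bound ("at least").

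The members and lists were chosen with earlier results of these data known. Of each list, up to 4 genes with the largest differences past the threshold were named per comparison. Other settings tried were a floor of 4, of 6 or none, quantile or median-centred values, 1 probe set per gene, probe sets of unique match alone, other folds, other blocks, an intensity trend and leaving out each array. Python 3.11.15, pandas 2.3.3, numpy 2.4.6 and matplotlib 3.10.9 were used.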

Additional observations from a re-analysis of the deposited data

How the results depend on the processing

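The count of 12 member probe sets called between the lines ranged from 5 to 10 when 1 array was left out, where the lone array of a line is assumed to vary like the other line. Under the other alternatives it was 8 to 13, with fewer members tested at 1 probe set per gene or without probe sets matching several transcripts. With IL-32γ, the count past the fold in HH was 2 with a floor of 4 (11.2% of all probe sets) and 2 without floor or filter (6.93%), in place of 1. In MyLa it was 4 in both settings, 1 of them lower (21.7% and 12.5%), and 2 with a floor of 6 or 1 probe set per gene (18.2% and 15.4%), in place of 3. At a lower fold threshold it was 9 in MyLa (42.7%) and 3 in HH (26.9%), and at 2-fold 1 (6.13%) and 0 (2.03%). Responses of 1.5-fold in opposite directions in the lines were found for 0 members, also under 7 alternatives chosen after seeing the data. Across lines 0 members passed under every alternative run, without the line block included. Leaving out an array from that fit leaves no residual degree of freedom, so this was not run. Of single-probe-set comparisons between lines, 160 kept their side of the threshold, 23 lost the call and 2 gained one, and none reversed. No reversal was possible in the fits with 1 array left out, since the arrays of the lines did not overlap for any tested member. Within lines 3 values moved by more than the spread, all of SPRED1 244439_at in MyLa under another floor or none. The IL-32γ fit across lines already pairs the arrays by line, and treatment as a block left 12 calls between lines. By replicate number, no pairing could be made, as each group has 1 array. At low signal, DUSP1, DUSP2 and the dim probe sets of DUSP6 and SPRED1 are limited by the floor.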

Other observations

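Relatives of the feedback genes outside the comparisons above were looked up by name after the other values had been seen. SPRY4, SPRY3 and the transcript SPRY4-IT1 were below 5 on all 4 arrays (SPRY3 highest at 3.75 on the MyLa control array), so SPRY1 was the 1 Sprouty gene with a measured probe set here. The pseudogene DUSP5P1 did not follow DUSP5: it read 9.84 and 9.68 in MyLa and 10.98 and 10.92 in HH, where the DUSP5 probe set was at 2.72 and 2.73.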
